A study of Homo sapiens with 12 samples.

Results

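CYP1B1 and the aryl hydrocarbon receptor axis were followed here through 6 genes, CYP1B1, CYP1A1, CYP1A2, AHR, ARNT and TIPARP. Every probe set whose platform annotation gave exactly 1 gene symbol, and that symbol 1 of these 6, was taken. This gave 12 probe sets of the 22215 on the array that are not controls, or 6 of the 11963 genes measured by a probe set with 1 symbol, with 4 for CYP1B1, 3 for ARNT, 2 for CYP1A2 and 1 each for CYP1A1, AHR and TIPARP. CYP1B1 was selected on its AGA and vehicle values in these same arrays, which lay far apart, and the other 5 genes because they act with it. The AGA and vehicle values of all 12 probe sets, and their Aza and AGA values, are therefore given as a description with no test.

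RNA was measured on 12 single-colour Affymetrix arrays from HMT-3522 S1 cells, 1 established line of non-neoplastic human mammary epithelium that forms acini in basement membrane gel. Cultures given AGA (18-alpha-glycyrrhetinic acid, a blocker of gap junctions) and cultures given Aza (5-aza-2'-deoxycytidine, which blocks DNA methyltransferases) received 10 µM of the agent for 10 days from plating, and both are labelled not polarized. The vehicle cultures are labelled polarized, and the sources used here do not name the solvent. Each group had 4 arrays, numbered 1 to 4. All 3 groups were grown at passage 55 to 60 with 5% Matrigel, with oestradiol and 1.4 µM hydrocortisone in the medium, and without EGF for the last 48 hours. Replicates are described as biological, without saying how separate the cultures were, so p-values measure the spread between these arrays, which may be technical.

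The aryl hydrocarbon receptor, AHR, is a transcription factor that waits in the cytoplasm with chaperones and moves to the nucleus when it binds planar aromatic compounds or some tryptophan metabolites. There it pairs with ARNT and binds DNA elements with the core GCGTG, which raises the genes of the CYP1 family of cytochrome P450 enzymes and that of TIPARP, an ADP-ribosyltransferase that in turn restrains AHR. CYP1B1 hydroxylates oestradiol and activates polycyclic aromatic hydrocarbons, and it is the CYP1 enzyme best known from breast tissue outside the liver.

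RefSeq promoter windows, from 250 bases before to 50 after a gene's start, matched 5 of the 6 genes, CYP1B1 not among them. The core GCGTG, on either strand, with overlaps counted, was present in 3 of their 7 windows, against 36.5% of 35116 windows of that length. Those 3 windows are printed below because they show the element by which the axis is defined, with the core in capitals. They are given 5′ to 3′ on the gene's strand in GRCh38.p14: CYP1A1 at chr15:74725479-74725778 (minus strand, 1 match), AHR at chr7:17298402-17298701 (plus strand, 1 match) and the first of the 3 TIPARP windows at chr3:156674340-156674639 (plus strand, 2 matches on the other strand). A match describes the letters only.
CYP1A1: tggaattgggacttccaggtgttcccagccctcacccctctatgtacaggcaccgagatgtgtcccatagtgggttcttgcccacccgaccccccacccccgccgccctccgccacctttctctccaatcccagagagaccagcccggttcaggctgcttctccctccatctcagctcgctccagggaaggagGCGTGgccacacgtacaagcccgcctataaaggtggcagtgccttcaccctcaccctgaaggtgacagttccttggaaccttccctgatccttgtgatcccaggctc
AHR: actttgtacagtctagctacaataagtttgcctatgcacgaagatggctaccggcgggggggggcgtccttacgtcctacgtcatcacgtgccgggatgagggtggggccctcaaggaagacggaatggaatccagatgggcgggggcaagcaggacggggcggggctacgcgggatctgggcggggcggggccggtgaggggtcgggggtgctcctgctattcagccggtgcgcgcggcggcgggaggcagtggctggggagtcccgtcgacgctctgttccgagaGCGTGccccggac
TIPARP: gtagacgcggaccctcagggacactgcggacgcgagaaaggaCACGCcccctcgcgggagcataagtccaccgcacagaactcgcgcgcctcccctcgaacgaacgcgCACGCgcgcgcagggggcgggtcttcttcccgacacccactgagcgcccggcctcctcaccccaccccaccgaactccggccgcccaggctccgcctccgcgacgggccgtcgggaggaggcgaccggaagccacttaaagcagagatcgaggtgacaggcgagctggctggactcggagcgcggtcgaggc

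Values are levels, meaning log2 of the deposited intensity with values under 1 set to 1, after quantile normalization across arrays. Array medians of the deposited intensity lay between 23.3 and 35.9, and precision is limited by having 4 arrays in a group. Across the probe sets above the median level of 4.76, a first principal component with 43.4% of the variance set the 3 arrays numbered 4 (scores of 38.7 to 46.3) apart from the other 9 (at most -7.32), so differences between arrays of the same number are given beside each group difference. The cells carried the label's epithelial markers, with 7 of 9 measured genes above the median level (KRT5 12.39, KRT14 12.37, CDH1 7.84), while EPCAM was low at 1.47 and KRT19 was at the floor of 0 on every array. Summed linear levels of the 9 epithelial markers ran from 13519 to 16057 in AGA, 9192 to 14490 in Aza and 9542 to 14809 in vehicle cultures, and their part in the results below was not tested. The summed fibroblast markers (2 of 7 above the median level) ran from 133 to 220 in AGA, 235 to 288 in Aza and 183 to 266 in vehicle cultures, and their part was not tested either. Of the other markers, 0 of 6 leukocyte, 0 of 6 hepatocyte and 2 of 7 endothelial and adipocyte genes had a mean level above the median. Fewer cells of a type and less RNA per cell cannot be told apart in such bulk samples.

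The mean level of CYP1B1 was higher in AGA than in vehicle cultures on all 4 of its probe sets, and lower by value in Aza than in vehicle cultures on all 4. On 202436_s_at, the CYP1B1 probe set with the highest mean level, deposited intensities were 371, 525, 389 and 427 in AGA cultures 1 to 4. They were 274, 228, 133 and 172 in Aza cultures and 364, 274, 211 and 230 in vehicle cultures. As levels these were 8.81, 8.99, 8.74 and 8.95 in AGA, 7.90, 7.76, 6.96 and 7.60 in Aza, and 8.54, 8.10, 7.30 and 7.80 in vehicle cultures. All 4 AGA values lay above all 4 vehicle values and all 4 Aza values, while the Aza and vehicle ranges overlapped. The means were 8.88 ± 0.12 in AGA, 7.56 ± 0.42 in Aza and 7.94 ± 0.52 in vehicle cultures (SD, n = 4). The AGA minus vehicle difference was 0.94 ± 0.28 (SE, or 0.19 with the replicate number as a block in the fit). By number the AGA minus vehicle difference was 0.28, 0.90, 1.44 and 1.15, so pair 1 gave the least and pair 3 the most.

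The probe set 202437_s_at had levels of 7.45, 8.22, 8.04 and 8.41 in AGA, 6.72, 7.19, 6.59 and 7.10 in Aza, and 7.64, 7.37, 6.92 and 7.33 in vehicle cultures. The AGA culture numbered 1 lay below its vehicle partner here, so the AGA and vehicle ranges overlapped, and 3 of 4 pairs were higher. The AGA minus vehicle difference was 0.72 ± 0.25 (SE, n = 4), from -0.19 in pair 1 to 1.12 in pair 3. On 202435_s_at the levels were 6.86, 6.93, 6.67 and 7.06 in AGA, 6.05, 5.78, 5.65 and 6.26 in Aza, and 6.55, 6.45, 6.11 and 6.10 in vehicle cultures. The AGA values again lay above all others, with an AGA minus vehicle difference of 0.58 ± 0.18 (SE, n = 4) and 4 of 4 pairs higher. On all 3 of these probe sets every array was above its own median intensity, and pair 1 gave the smallest of the 4 AGA minus vehicle differences.

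**Figure D1:**
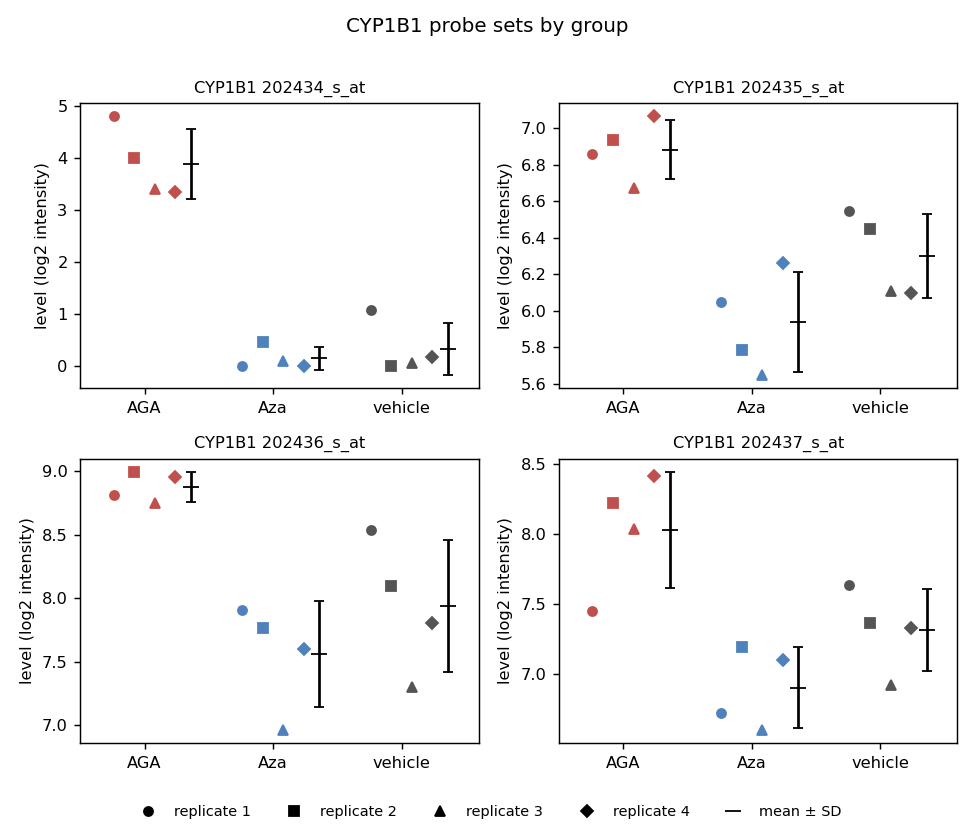
Levels (log2 intensity, quantile normalized) of the 4 CYP1B1 probe sets on each of the 12 arrays, by group, with marker shape for replicate number and bars for mean ± SD (n = 4). The AGA points lie above all vehicle points on 3 of the 4 probe sets and above all Aza points on each, while Aza and vehicle overlap.

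The remaining probe set, 202434_s_at, was dim. Its deposited intensities were 22.7, 16.7, 8.82 and 9.54 in AGA cultures, 0.874, 1.50, 1.07 and 0.932 in Aza cultures, and 2.11, 0.949, 1.05 and 1.21 in vehicle cultures. All 12 lay below the median intensity of their own array, and 2 Aza values and 1 vehicle value were below the floor of 1. Its levels were 4.80, 3.99, 3.40 and 3.35 in AGA, 0, 0.45, 0.09 and 0 in Aza, and 1.07, 0, 0.05 and 0.16 in vehicle cultures, so the AGA values stood clear of both other groups. The AGA minus vehicle difference of 3.56 ± 0.34 (SE, n = 4) is on a scale that depends on how such low intensities are treated. It was 0.22 when intensities under 16 were set to 16 and 0.865 on log2(intensity + 16). The same 2 changes left 202436_s_at at 0.94 and 0.89. Detection calls were not used here, so no statement is made on whether this probe set was above background.

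Aza was set against AGA as well, and all 4 CYP1B1 probe sets had every Aza value below every AGA value. The Aza minus AGA differences were -1.32 on 202436_s_at, -1.13 on 202437_s_at, -0.95 on 202435_s_at and -3.75 on the dim 202434_s_at. These were the only members of the 12 whose Aza and AGA values did not overlap, and over all probe sets 1.34% were fully lower in Aza and 1.24% fully higher. They were also the only members lower in 4 of 4 pairs, against 8.76% of all probe sets (8.66% higher). For AGA and vehicle values, 3 of the 12 members, all CYP1B1, were fully higher in AGA, against 1.23% of all probe sets (1.29% were fully lower), and 3 were higher in 4 of 4 pairs, against 9.15% (9.06% lower). The choice of CYP1B1 used these values, and nothing is read from the counts. The order of the CYP1B1 group means was AGA, then vehicle, then Aza on each of the 4 probe sets, and the vehicle and Aza values overlapped on each.

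**Figure D2:**
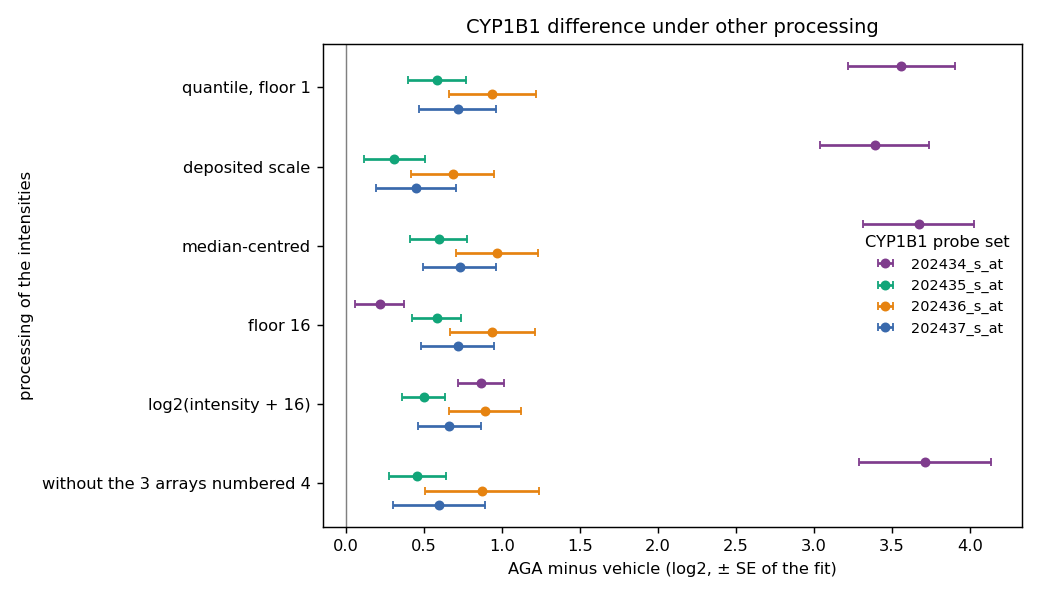
AGA minus vehicle difference (log2, ± SE of the fit) for the 4 CYP1B1 probe sets under 6 ways of processing, named on the vertical axis. The 3 brighter probe sets stay between 0.31 and 0.97, whereas 202434_s_at moves between 0.22 with a floor of 16 and 3.71 without the 3 arrays numbered 4.

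Aza against vehicle was not used to choose the genes, although it shares the vehicle arrays with the comparison that was. It asked whether transcripts of the axis differ in acini grown with the methyltransferase inhibitor. No member passed, with 0 of 12 called by limma at an adjusted p under 0.05, where 0.009% of all 22215 probe sets were called. None had an unadjusted p under 0.05 in that fit, where 3.27% of all probe sets did. With the replicate number as a block limma called 0 members, where 0% of all probe sets were called. In that fit 2 of 12 had an unadjusted p under 0.05, where 5.39% of all probe sets did. Adding a trend of the variance on the level to the block also gave 0 called, where 0.0045% of all probe sets were called, each of them higher (0.0045%). In that fit 3 of 12 had an unadjusted p under 0.05, where 6.47% of all probe sets had one. Those 3 were CYP1B1 202436_s_at, 202437_s_at and 202435_s_at, which measure 1 gene in the same RNA. No member's Aza values lay all above (0.846% of all probe sets) or all below (0.878%) its vehicle values. The limma adjusted p was 1 for each of the 12.

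For CYP1B1 the Aza minus vehicle difference was -0.38 on 202436_s_at, with a 95% interval from -0.99 to 0.23 and values lower in 4 of 4 pairs. It was -0.41 on 202437_s_at (interval -0.96 to 0.13, lower in 4 of 4 pairs) and -0.36 on 202435_s_at (interval -0.77 to 0.04, lower in 3 of 4 pairs). Over all probe sets 7.12% were lower in 4 of 4 pairs. The dim 202434_s_at differed by -0.19 (interval -0.95 to 0.58) and had no common direction, being lower in 2 of 4 pairs. With the replicate number as a block the differences are the same and the 95% intervals narrower, from -0.81 to 0.06 on 202436_s_at, -0.92 to 0.10 on 202437_s_at and -0.72 to -0.010 on 202435_s_at. The last leaves out 0 (limma with the block, unadjusted p = 0.0452, adjusted p = 0.912), and none of the 4 passed.

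CYP1A1, the family member most often used as a readout of AHR activity, was dim, and all 12 arrays were below their median intensity for its probe set 205749_at. Its deposited intensities were 10.9, 2.02, 9.64 and 16.5 in AGA, 22.6, 11.4, 10.4 and 19.1 in Aza, and 15.5, 12.4, 11.5 and 12.8 in vehicle cultures. Only AGA culture 2 stood away from the rest, and the groups overlapped. The level was 3.10 ± 1.45 in AGA, 3.87 ± 0.61 in Aza and 3.61 ± 0.22 in vehicle cultures (SD, n = 4). The AGA minus vehicle difference was -0.51 ± 0.60 (SE), higher in 2 of 4 pairs, and the Aza minus vehicle difference was 0.26 with an interval from -1.07 to 1.59. The CYP1A1 group means ran Aza, then vehicle, then AGA, but the place of AGA rests on culture 2, at a level of 0.97. The other AGA cultures were at 3.73, 3.53 and 4.17, beside 3.40 to 3.91 in vehicle cultures. The Aza minus vehicle interval spans changes of over 1 log2 unit in both directions.

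CYP1A2, the largely hepatic enzyme that clears caffeine, had probe sets that differed from each other. On 207609_s_at all 12 intensities were between 0.860 and 13.7, below each array's median. Its mean level was 2.39 in AGA, 2.41 in Aza and 1.11 in vehicle cultures. The values were higher in 3 of 4 pairs in AGA (difference 1.28 ± 0.82, SE, n = 4) and in 4 of 4 pairs in Aza (1.30, interval -0.50 to 3.11, or 0.12 to 2.49 with the replicate block, where the limma adjusted p was 0.912), and the difference was 0 in both when intensities under 16 were set to 16. Higher values in 4 of 4 pairs were seen in 7.61% of all probe sets for Aza. On 207608_x_at, whose suffix marks probes that can cross-hybridise, levels ran from 4.20 to 5.32 in AGA, 4.38 to 5.09 in Aza and 4.44 to 5.35 in vehicle cultures. Its differences from vehicle were 0.05 in AGA and -0.13 in Aza, so the 2 probe sets gave no common picture.

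**Figure D3:**
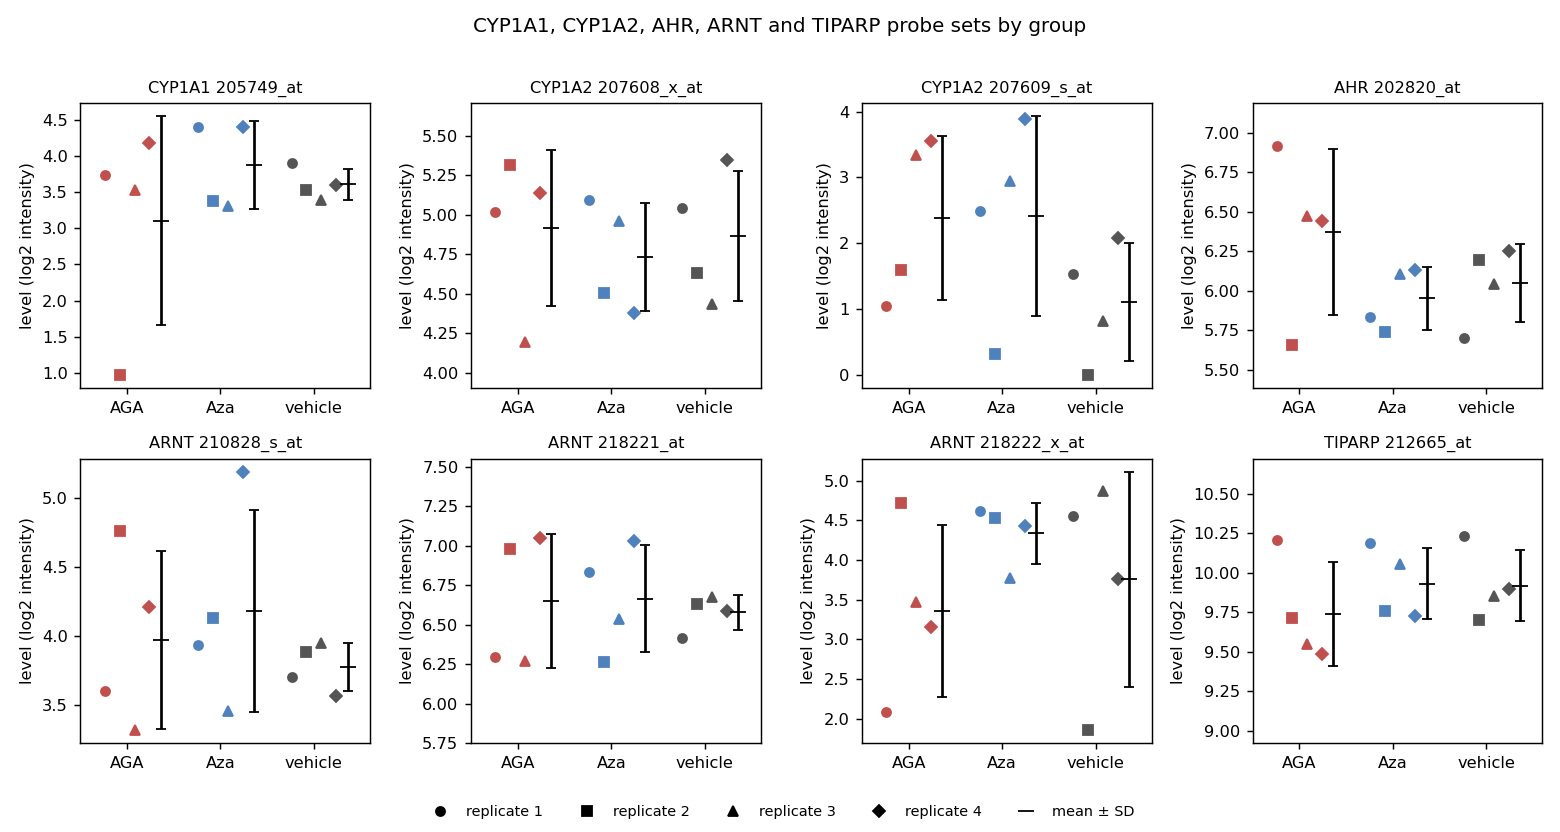
Levels (log2 intensity, quantile normalized) of the 8 probe sets of CYP1A1, CYP1A2, AHR, ARNT and TIPARP on each array, by group, with marker shape for replicate number and bars for mean ± SD (n = 4). In each panel the 3 groups overlap.

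AHR itself was measured by 202820_at, above the array median on every array. Its levels were 6.92, 5.66, 6.47 and 6.44 in AGA, 5.83, 5.74, 6.11 and 6.13 in Aza, and 5.70, 6.20, 6.04 and 6.25 in vehicle cultures. The highest and the lowest of the 12 both belonged to AGA, and all groups overlapped. The AGA minus vehicle difference was 0.32 ± 0.26 (SE, n = 4), higher in 3 of 4 pairs, from -0.54 in pair 2 to 1.21 in pair 1. For CYP1B1 the difference was smallest in pair 1 on its 3 brighter probe sets and in pair 4 on the dim 202434_s_at. Any link between the AHR and CYP1B1 levels was not tested. The Aza minus vehicle difference was -0.10, with an interval from -0.66 to 0.47.

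ARNT, the nuclear partner that AHR shares with the hypoxia factors, had 1 probe set above the median intensity on every array, 218221_at. It had levels of 6.65 ± 0.42 in AGA, 6.66 ± 0.34 in Aza and 6.58 ± 0.11 in vehicle cultures (SD, n = 4). The differences from vehicle were 0.07 ± 0.24 (SE) in AGA and 0.09 (interval -0.43 to 0.61) in Aza, and each was higher in 2 of 4 pairs. The probe sets 210828_s_at and 218222_x_at were below the median on 11 of 12 arrays each, with AGA minus vehicle differences of 0.20 and -0.40 and Aza minus vehicle differences of 0.40 and 0.58. On 218222_x_at vehicle culture 2 was lowest at 1.85 and the other vehicle cultures were between 3.76 and 4.87, and pair 2 was at 2.87 in AGA and 2.68 in Aza.

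TIPARP, the target gene that feeds back on AHR, was bright. Its deposited intensities were 983, 865, 699 and 614 in AGA, 1327, 906, 1131 and 742 in Aza, and 1151, 829, 1211 and 959 in vehicle cultures. On the normalized scale the level was 9.74 ± 0.33 in AGA, 9.93 ± 0.23 in Aza and 9.92 ± 0.22 in vehicle cultures (SD, n = 4), with overlapping groups. The AGA minus vehicle difference was -0.18 ± 0.20 (SE without the replicate block), higher in 1 of 4 pairs. With the replicate block the standard error was 0.12. In Aza the difference was 0.01, with an interval from -0.44 to 0.46. That interval leaves room for changes of under 0.5 log2 units.

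**Figure D4:**
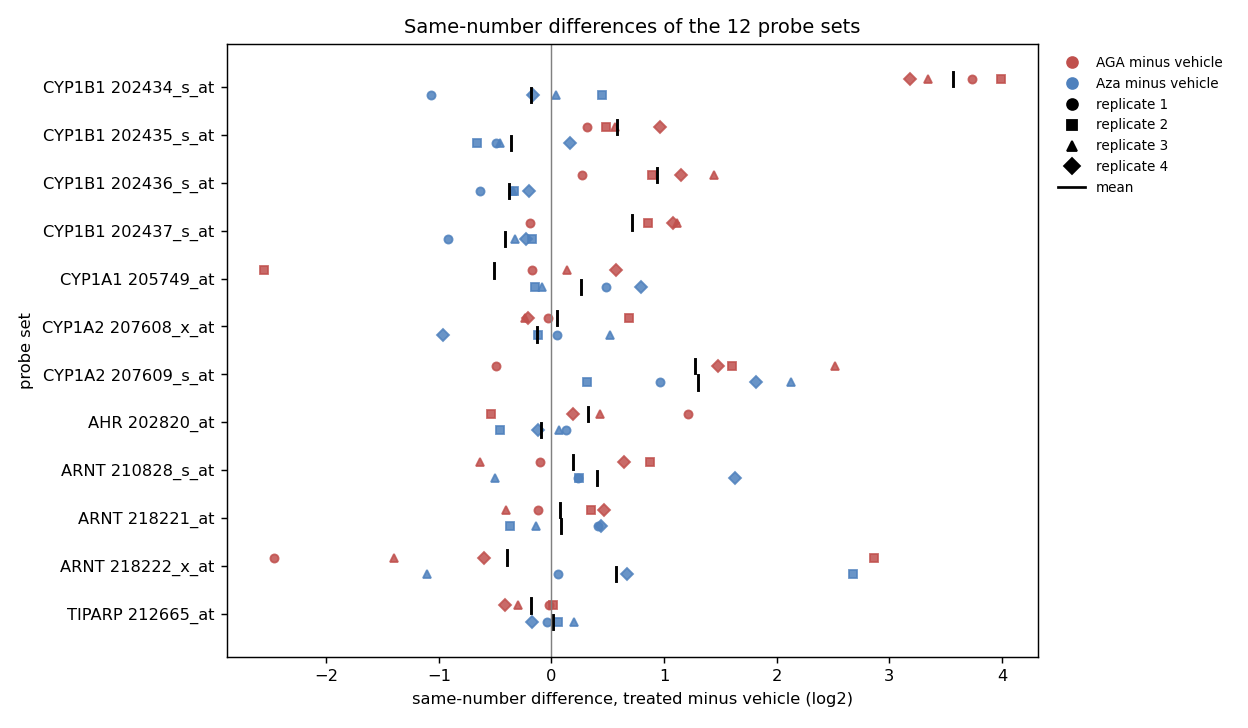
Same-number differences, treated minus vehicle (log2), for the 12 probe sets, with AGA in the upper and Aza in the lower row of each, marker shape for replicate number and a black bar for the mean. CYP1B1 202434_s_at stands apart in AGA at 3.18 to 3.99, and the other CYP1B1 probe sets lie mostly right of 0 in AGA and left of 0 in Aza.

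Across the 12 members the median AGA minus vehicle difference was 0.26, with 9 of 12 above 0, beside 0 and 49.9% over all probe sets. The 4 CYP1B1 probe sets make up 4 of those 9, and they measure 1 gene. The median Aza minus vehicle difference of the members was -0.04, with 6 of 12 above 0, beside -0.00076 and 49.7% over all probe sets. AGA and Aza were set against the same vehicle arrays, so the 2 sets of differences are not independent. On the deposited scale, without normalization, the median of all probe sets was -0.24 in AGA minus vehicle. The CYP1B1 differences there were 0.685, 0.447, 0.312 and 3.39 on 202436_s_at, 202437_s_at, 202435_s_at and 202434_s_at. They come from the values that chose CYP1B1.

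Other genes of the pathway were counted in 7 lists, covering 194 probe sets. Limma called 0 of the 194 in AGA against vehicle, where 0.009% of all probe sets were called, and 8 had an unadjusted p under 0.05 (4.73% of all probe sets did). With the replicate block limma called 0 (0.009% of all probe sets), and 30 of 194 had an unadjusted p under 0.05 (9.52% of all probe sets). With block and trend together 3 rose and 1 fell, where 0.702% of all probe sets were called, 0.387% higher and 0.315% lower, and 39 of 194 had an unadjusted p under 0.05 (11.8% of all probe sets). In Aza against vehicle limma called 0 of 194 in each of the 3 fits. Of all probe sets 0.009% were called without block or trend, 0% with the block and 0.0045% with block and trend. There 3 of 194 had an unadjusted p under 0.05 without block or trend (3.27% of all probe sets), 11 with the block (5.39%) and 16 with block and trend (6.47%). In Aza against AGA, where 0.0135% of all probe sets were called, limma called 0 of 194 with 9 at an unadjusted p under 0.05 (4.76% of all probe sets). The replicate block called 0 there (0.009% of all probe sets), with 26 of 194 at an unadjusted p under 0.05 (9.13% of all probe sets). The block with trend called 3, with 27 at an unadjusted p under 0.05 (11.2%). The 3 were all lower in Aza, where 0.851% of all probe sets were called, 0.468% higher and 0.383% lower.

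Among AHR target genes, 22 of 28 were measured, by 33 probe sets with a median AGA minus vehicle difference of 0.11 and 21 of 33 above 0. SLC7A5, a large neutral amino acid transporter that brings in tryptophan and kynurenine, had levels of 8.57, 8.65, 8.50 and 8.53 in AGA, 7.97, 7.89, 6.80 and 7.51 in Aza, and 8.06, 7.98, 7.16 and 7.67 in vehicle cultures. Every AGA value lay above every other. In AGA it rose by 0.85 ± 0.14 (SE of the fit with replicate block and trend, n = 4; limma adjusted p = 0.00922), against a limma adjusted p of 0.982 without block or trend. That call was lost on the deposited scale, without vehicle 3 or vehicle 4, and without the 3 arrays numbered 4, with adjusted p up to 0.0697. Against AGA, SLC7A5 fell in Aza by 1.03 (limma adjusted p = 0.00178 with block and trend, 0.793 without) and was called in 15 of 15 further settings of that fit.

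NQO1, a quinone reductase under both AHR and NRF2, had levels on 210519_s_at of 9.31, 9.76, 9.63 and 9.03 in AGA and 9.40, 8.94, 8.86 and 7.99 in vehicle cultures. The groups overlapped, since vehicle 1 was above AGA 1. It rose by 0.63 ± 0.14 (SE of the fit with replicate block and trend; limma adjusted p = 0.0457, 1 without), and that call held in only 3 of 15 further settings. Its other probe sets were at 0.52 and 0.63 without passing (limma adjusted p = 0.163 and 0.147 with block and trend). The secreted glycoprotein gene STC2 was lower in Aza than in AGA by 0.89 ± 0.11 on 203438_at (limma adjusted p = 9.7e-04 with block and trend, 0.805 without), in 15 of 15 further settings. Its levels there were 6.45, 7.26, 7.27 and 6.78 in Aza and 7.55, 7.89, 8.15 and 7.72 in AGA cultures, while its other probe set was at -0.42 without passing. From vehicle, STC2 on 203438_at differed by 0.48 in AGA and -0.41 in Aza. ALDH3A1, a detoxifying aldehyde dehydrogenase known as an AHR target, differed by -0.07 in AGA and -0.03 in Aza. The cytokine gene IL24 was lower by value in AGA (-1.03, limma adjusted p = 0.912; 0.426 with the replicate block) at levels of 0.58 in AGA and 1.61 in vehicle cultures. In Aza the lowest p in the list belonged to VAV3, at -0.42 on 218807_at and NEDD9, a focal adhesion scaffold, at 0.33 on 202149_at, both with a limma adjusted p of 1. Each had another probe set above the median level, at -0.07 in Aza for VAV3 and -0.07 for NEDD9.

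Enzymes that handle the products of CYP1B1 or serve P450 enzymes were measured for 14 of 16 genes, by 22 probe sets with a median AGA minus vehicle difference of 0.25 and 14 of 22 above 0. SULT1E1, the oestrogen sulfotransferase, had levels of 8.48, 8.11, 7.44 and 6.05 in AGA and 8.92, 8.75, 8.36 and 7.22 in vehicle cultures. The groups overlapped, but each AGA culture was below the vehicle culture of its number. It fell by 0.79 ± 0.13 (SE of the fit with replicate block and trend; limma adjusted p = 0.0109, 1 without). The call was lost without vehicle 3, vehicle 4 or AGA 3 and without the 3 arrays numbered 4, with adjusted p up to 0.0708. EPHX1, the microsomal epoxide hydrolase, was lower in Aza than in AGA by 0.65 ± 0.13 (limma adjusted p = 0.021 with block and trend, 1 without), a call kept in 7 of 15 further settings. Its differences from vehicle were 0.51 in AGA and -0.14 in Aza. HMOX1, which degrades haem, was at 1.09 in AGA (limma adjusted p = 0.054 with block and trend) while the dim STS, steroid sulfatase, was at -1.22 on 203767_s_at and the dim HSD17B1, which makes oestradiol from oestrone, at 1.00 (limma adjusted p of 1 for both). POR, the reductase that feeds electrons to P450 enzymes, was at 0.15 in AGA.

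Among partners of the AHR complex, 12 of 15 genes were measured, by 36 probe sets with median differences of -0.07 in AGA and -0.05 in Aza, 12 and 13 of 36 above 0. The coactivator gene NCOA2 had the lowest p in AGA, at -0.74 on the dim 205732_s_at (limma adjusted p = 0.953, 0.426 with the replicate block). Its other probe sets, all above the median level, were at -0.26, -0.06 and 0.02 in AGA. NCOA1 was at -0.82 in AGA on 209105_at and at -0.41, -0.20 and -0.07 on its other probe sets. The corepressor gene NRIP1 was at -0.30 and -0.37 in AGA, and SMARCA4, a chromatin remodelling ATPase, at 0.36 in AGA on 215714_s_at and -1.27 in Aza on the dim 213719_s_at (limma adjusted p of 1 for each). The other SMARCA4 probe sets above the median level ran both ways in AGA, from -0.22 to 0.39. In Aza the SMARCA4 probe sets above that level ran from -0.13 to 0.18. The dim ARNT2, a relative of ARNT, was at 0.66 in AGA and -0.60 in Aza. Of the listed hypoxia genes, among them partners of ARNT and target genes, 14 of 16 were measured. Their 23 probe sets had medians of 0.06 in AGA and 0.02 in Aza. HIF1A, the hypoxia factor itself, was at -0.0040 in AGA and 0.04 in Aza. The glucose transporter gene SLC2A1 on 201250_s_at rose in AGA by 0.58 ± 0.12 (limma adjusted p = 0.0413 with block and trend, 1 without), a call held in 4 of 15 further settings. BNIP3, a mitophagy receptor, was at -0.43 in AGA on 201849_at (limma adjusted p = 0.0581 with block and trend). Its other probe set, 201848_s_at, also above the median level, was at 0.12 in AGA and higher in 3 of 4 pairs. VEGFA, the vascular growth factor, had the lowest p of the list without block or trend, at 2.87 in AGA on the dim 211527_x_at (limma adjusted p = 0.808, 0.103 with block and trend), with mean levels of 3.19 in AGA and 0.33 in vehicle cultures and 4 of 4 pairs higher. Its other 3 probe sets were at 0.49, 0.06 and -0.07 in AGA. NDRG1, a stress-responsive gene, was at 0.43 in AGA.

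Enzymes of the kynurenine pathway, which makes ligands of AHR from tryptophan, were measured for 6 of 9 genes, by 11 probe sets with medians of 0.43 in AGA and -0.22 in Aza. Only 3 of the 11 were above the median level, all from KYNU, the kynureninase gene, at 1.86, 0.64 and 0.85 in AGA with limma adjusted p of 0.0776, 0.587 and 0.349 with block and trend. Among the dim ones KMO, the kynurenine monooxygenase, was at 1.25 in Aza on 205307_s_at, IDO1, which opens the pathway, at -1.34 in Aza, and HAAO at -0.83 in AGA and -0.73 in Aza, each with a limma adjusted p of 1. For PARP enzymes other than TIPARP, 11 of 14 genes were measured, by 15 probe sets with medians of -0.01 in AGA and -0.02 in Aza. PARP11 was at -0.62 in AGA, TNKS, a tankyrase, at -1.06 in AGA on the dim 216695_s_at and -0.24 on 202561_at, its relative TNKS2 at -0.24 in AGA and -0.29 in Aza, and PARP1 at 0.33 in AGA and 0.17 in Aza, with a limma adjusted p of 1 for each.

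The other P450 genes of the array, 37 genes with 55 probe sets, were mostly dim, with 4 of 55 above the median level, and had medians of 0.01 in AGA and -0.00052 in Aza. CYP4A11, a fatty acid hydroxylase, had mean levels on 207407_x_at of 2.83 in AGA, 2.53 in Aza and 0.07, near the floor, in vehicle cultures, so the differences of 2.77 and 2.46 depend on the treatment of low intensities. Its limma adjusted p was 0.255 in AGA and 0.47 in Aza, and its other probe set ran the opposite way, at -1.74 and -1.09. In AGA against vehicle it passed when only the arrays of those 2 groups were fitted (2.74, adjusted p = 0.0351). The dim CYP2A6 was at 0.89 in AGA on 207244_x_at (limma adjusted p of 1). The dim CYP7B1 was at -1.70 in AGA and CYP2D6 at -1.29 in Aza on 217468_at, with limma adjusted p of 0.991 and 1.

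**Figure D5:**
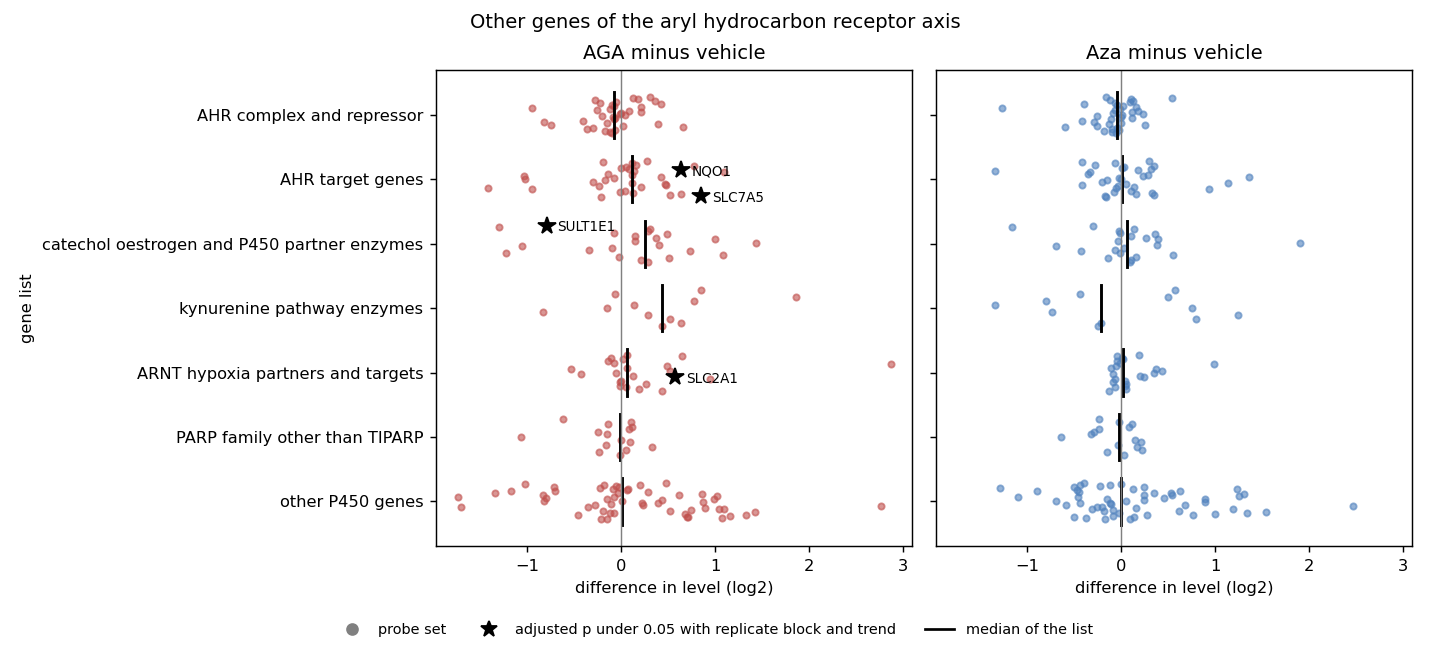
Difference in level (log2) of the 194 probe sets in 7 gene lists, for AGA minus vehicle on the left and Aza minus vehicle on the right, with a point for each probe set, a black bar for each list's median and stars for adjusted p under 0.05 in the limma fit with replicate block and trend. Stars appear only in AGA, on SLC7A5, NQO1, SLC2A1 and SULT1E1, the last below 0.

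Genes were ranked by the likeness of their pattern to CYP1B1 202436_s_at. The measure was the root mean square difference over the 8 same-number differences from vehicle, 4 in AGA and 4 in Aza. It was taken among the 9786 probe sets above the median level that had 1 symbol and were not members. The nearest were SLC7A5 (0.26 log2 units), the asparagine synthetase gene ASNS (0.31), the cystine transporter gene SLC7A11 (0.32), the RNA sensor gene TLR3 (0.36) and SLC47A1, a gene for a drug and toxin extrusion transporter (0.36). By comparison the CYP1B1 probe sets 202437_s_at and 202435_s_at were at 0.23 and 0.39, and the dim 202434_s_at at 1.94. SLC7A5 had AGA minus vehicle differences of 0.51, 0.68, 1.34 and 0.87 by number and Aza minus vehicle differences of -0.09, -0.09, -0.36 and -0.16, with the same pair at the top in AGA as CYP1B1. The likeness describes these arrays only, and the AGA values that chose CYP1B1 are part of it.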

How the data were processed

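The deposited values are linear probe set intensities between 0.0206 and 11878, made with GCOS per the submitters' processing notes, with no version or algorithm given; per the labels' protocols 2.25 µg of RNA was labelled. From these deposited intensities, values under 1 were set to 1, log2 was taken, 62 control probe sets were left out and the 12 arrays were quantile normalized, since log2 array medians differed by 0.62. Symbols came from the platform annotation (19064 probe sets with 1 symbol, 1043 with several, 2108 with none); the files name no genome build. The Entrez identifiers of all 6 genes matched the RefSeq table of GRCh38.p14.

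Limma 3.58.1 in R 4.3.3 (lmFit, eBayes, two-sided) was fitted over all 12 arrays and all 22215 probe sets, with Benjamini-Hochberg adjustment over all of them and a threshold of 0.05; intervals are 95%. Only the fit without block or trend was tried on simulated data, and those data held no effect of the replicate number. The members, lists and naming rule were chosen with earlier results of these data known. Named list genes were those past the threshold in any fit and, per list, the 4 genes with the lowest unadjusted p in AGA or Aza against vehicle without block or trend; ALDH3A1, POR, HIF1A, ARNT2 and the further probe sets of named genes were chosen after their values were seen. Listed genes beyond those counted as measured were not analysed here. Alternatives were other scalings, floors and added values, a filter on dim probe sets, the replicate block with and without trend, 2 groups only, and each array left out.

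Same-number arrays of different groups correlated, as deviations from group means, at 0.0589 to 0.261 over all probe sets (6 of 12 pairs over 0.1; different numbers at most 0.0292) and at 0.368 to 0.781 over the 11107 probe sets above the median level (12 of 12 pairs). The numbers were therefore treated as pairing the cultures, though the labels give only the numbers. Standard errors of member differences are from the fit without the replicate block unless stated.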

Additional observations from a re-analysis of the deposited data

Results flagged for a closer look

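Of the 36 groups of 4 values (12 probe sets in 3 groups), 1 held a value far from the others, and chance gives about 1 in 20. On the dim CYP1B1 probe set 202434_s_at, vehicle culture 1 had a level of 1.07, while the next vehicle value was 0.16 and the lowest 0. Without that culture the AGA minus vehicle difference on this probe set was 3.81 and the Aza minus vehicle difference 0.0626. The intensities behind these levels are near the floor of 1.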

How the results depend on the processing

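Over 21 other settings the CYP1B1 202436_s_at difference between AGA and vehicle ran from 0.685 on the deposited scale to 1.14 without vehicle 1. These values chose CYP1B1, so nothing is read from the constant sign, and the replicate block cannot change the difference. Without block or trend 0 members (Aza against vehicle) and 0 list genes were called, and the counts stayed at 0 except for list genes in AGA against vehicle, with 4 under the replicate block with trend and 1 when 2 groups only were fitted, and in Aza against AGA, with 3 under the replicate block with trend. The replicate block alone called 0 in each comparison and changed no other call. Differences in Aza against vehicle that changed sign were small: without the 3 arrays numbered 4, ARNT 210828_s_at (-0.00497), ARNT 218221_at (-0.0309) and CYP1A2 207608_x_at (0.15); on the deposited scale, TIPARP (-0.0338). Leaving out 1 array at a time gave -0.0333 (without Aza 4) to 0.222 for ARNT 218221_at, -0.0592 (without vehicle 2) to 0.941 for ARNT 218222_x_at, -0.271 to 0.0312 (without vehicle 4) for CYP1A2 207608_x_at and -0.286 to 0.0626 (without vehicle 1) for CYP1B1 202434_s_at. TIPARP ran from -0.0735 (without Aza 1) to 0.118, and was also below 0 without vehicle 2 (-0.0612), vehicle 3 (-0.00983) or Aza 3 (-0.0294). None of these Aza values passed the threshold, and the cause was not tested. With dim probe sets left out, the dim members gave no value. The refits of SLC7A5, NQO1, SULT1E1, SLC2A1, EPHX1 and STC2 under block and trend were chosen after seeing the data, and none of the 7 differences changed sign in any of 15 settings. Signal limits CYP1A1, CYP1A2 and the dim CYP1B1 and ARNT probe sets.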
